A study of Rattus norvegicus with 9 samples.

Results

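Liver RNA of rats fed a high-fat diet was compared with liver RNA of rats on a normal diet, library by library and gene by gene. The comparison takes 6 of the 9 libraries of the series, 3 for each diet, chosen by their diet labels in the table that holds both groups. All 15929 genes of that table were considered, and 12041 passed the filter on low counts and were tested. The rats were males of the strain labelled SD. The model group spent 8 weeks on the high-fat diet as a way to bring about non-alcoholic fatty liver disease, and the normal group ate a normal diet. The other 3 libraries came from fatty livers of rats given the plant Smilax china L. (SCL), and here they only lend their spread to the test. The labels do not say whether each library is a separate animal, and the p-values rest on a library-to-library spread that may be partly technical.

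The liver makes cholesterol and fatty acids, turns cholesterol into bile acids, releases glucose and secretes most plasma proteins. Enzymes of cholesterol synthesis are driven by the sterol-sensing factor SREBP-2, and many of fatty acid synthesis by SREBP-1c, which insulin and LXR raise. In whole tissue, fewer cells of a type and less RNA per cell cannot be told apart.

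Depth was 13846295 to 15205176 reads in the normal diet libraries and 12842031 to 15521648 reads in the high-fat diet libraries. Transcripts of the mitochondrial genome, counted over the 13 symbols beginning Mt-, held 4.63%, 3.85% and 11.2% of the reads of normal diet libraries 1, 2 and 3. In the high-fat diet libraries they held 4.90%, 18.8% and 44.1%. High-fat diet replicate 1 thus lay among the normal diet libraries, and replicates 2 and 3 lay above all of them. Mean shares of 6.54% ± 4.01 (SD, n = 3) and 22.6% ± 19.9 (SD, n = 3) gave p = 0.2 in the exact two-sided permutation test, where 3 against 3 cannot go below 0.1. Without high-fat diet replicate 3 the difference of the means was 5.33 percentage points, against 16.1 with it. The mRNA of albumin (Alb), the defining hepatocyte product, took 13.03%, 10.4% and 12.6% of reads on the normal diet and 11.6%, 8.84% and 4.08% on the high-fat diet, so this marker was abundant in every library.

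High-fat diet replicate 1 lay closer to normal liver than to the other high-fat diet libraries. The root mean square difference of log2 CPM (reads scaled to the TMM-adjusted library size) over the genes tested was 0.566 between high-fat diet replicate 1 and normal diet replicate 1, and 1.14 and 1.27 between high-fat diet replicate 1 and high-fat diet replicates 2 and 3. High-fat diet replicate 2 was closest to normal diet replicate 3, at 0.686, which is below its 0.793 to high-fat diet replicate 3. Each library was also set against the normal diet mean, a normal library against the other normal libraries. The share of genes more than 1 log2 unit away was 8.64% in high-fat diet replicate 1, 21.2% in replicate 2 and 28.6% in replicate 3. In the normal diet libraries it was 8.77%, 5.20% and 15.8%. The normal diet libraries are set against a mean of 2 and the high-fat diet libraries against a mean of 3, so these shares are not on quite the same footing. Pair by pair, high-fat diet replicate 1 was 0.641 and 0.948 from normal diet replicates 2 and 3, and normal diet replicate 1 was 0.508 and 0.855 from them.

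**Figure D1:**
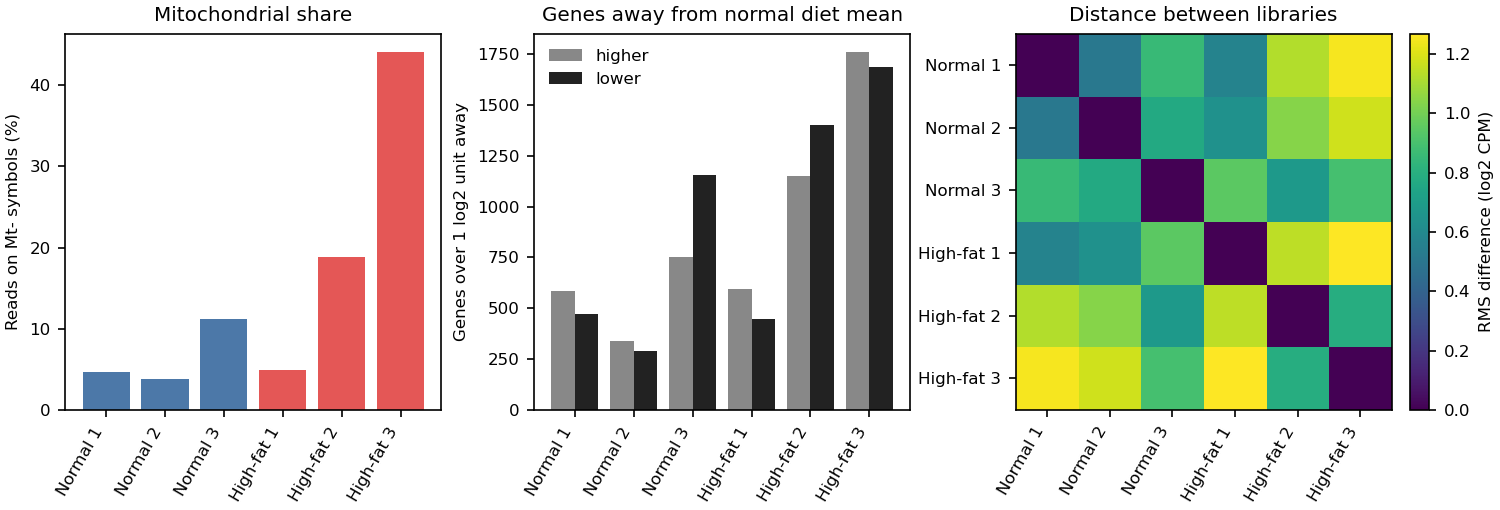
Left, share of reads on Mt- symbols in each library (%). Middle, number of the 12041 genes more than 1 log2 unit above or below the normal diet mean (a normal diet library is set against the other normal diet libraries). Right, root mean square difference in log2 CPM between each pair of libraries. High-fat diet replicates 2 and 3 have the highest shares and the most such genes, and high-fat diet replicate 1 is closer to normal diet replicates 1 and 2 than to them.

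Few genes lay more than 1 log2 unit away in the same direction in all 3 high-fat diet libraries. They numbered 68 higher and 50 lower. Another 636 genes were that much higher, and 764 that much lower, in high-fat diet replicates 2 and 3 but not in replicate 1. Of all 814 genes lower in both replicates 2 and 3, 447 were also more than 1 log2 unit lower in normal diet replicate 3, as were 280 of the 704 higher genes. In 131 genes replicate 1 was over 1 log2 unit higher while replicates 2 and 3 were that much lower, and in 74 it was the reverse.

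Gene length moved with the same libraries. Genes were put in 5 equal bins by length. In the bin of the shortest genes, of median length 1025 bases, the median deviation was 0.39 in normal diet replicate 3 and 0.40 in high-fat diet replicate 2, against -0.28 in normal diet replicate 1 and -0.20 in high-fat diet replicate 1. In the bin of the longest genes, of median length 5298 bases, the order turned round, with -0.24, -0.20, 0.19 and 0.17 in those libraries. High-fat diet replicate 3, which had the highest mitochondrial share, showed a smaller trend, 0.12 in the shortest and -0.06 in the longest genes. The part of length in the results below was not tested beyond the alternative with the trend removed.

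**Figure D2:**
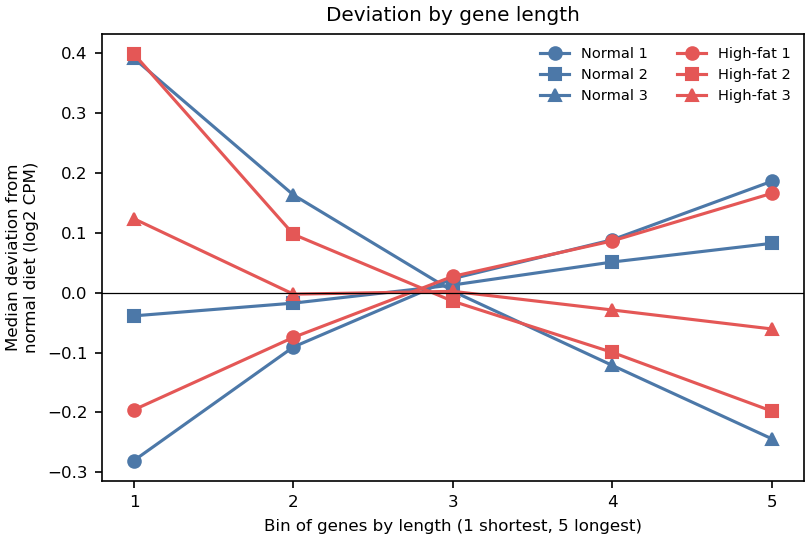
Median deviation from the normal diet (log2 CPM) against 5 bins of gene length, 1 line per library, blue for normal and red for high-fat diet. The lines of normal diet replicate 3 and high-fat diet replicate 2 slope down from about 0.39 and 0.40, and those of normal diet replicate 1 and high-fat diet replicate 1 slope up.

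In the edgeR quasi-likelihood test 1 gene of 12041 passed an adjusted p of 0.05 (0.0083%), and 520 had an unadjusted p under 0.05 (4.32%), of which 333 were higher (2.77%) and 187 lower (1.55%). The gene that passed was Tm7sf2, a sterol reductase of cholesterol synthesis. It stood at 101, 147 and 84.3 CPM in normal diet replicates 1 to 3 and at 11.02, 7.14 and 5.296 CPM in high-fat diet replicates 1 to 3. Tm7sf2 fell by 3.82 on the log2 scale (SE 0.37, adjusted p = 0.0083 by edgeR), and its groups did not overlap. The call was lost without high-fat diet replicate 2, at an adjusted p of 0.078 by edgeR and a log2 fold change of -3.76.

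DESeq2 called 47 of 13127 genes (0.358%), 26 higher (0.198%) and 21 lower (0.16%). Of these, 11 were genes of cholesterol synthesis, all lower, and 36 lay outside that list. The groups did not overlap in CPM for 33 of the 36. Of the 26 higher genes, 11 had a mean below 10 CPM in both groups. Another method, limma-voom with quality weights, called 26 genes (0.216%), 12 of them among the 36. Over all genes, the 3 high-fat diet libraries lay above all normal diet libraries for 641 genes (5.32%) and below them for 636 (5.28%). Of these, 214 (1.78%) and 123 (1.02%) differed by more than 1 log2 unit. Without high-fat diet replicate 1 the counts of 641 and 636 were 2724 and 2610. Without high-fat diet replicate 2 they were 1078 and 1086, and without normal diet replicate 3 they were 1502 and 1363. Such a count can only rise when a library is left out, so the direction of these changes was fixed beforehand. Some genes also separate by chance with 3 libraries against 3, and more do so with fewer libraries.

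Apart from the mitochondrial transcripts, cholesterol synthesis had the largest median shift of the lists, with 26 of 27 members lower in each high-fat diet library. Its median log2 fold change was -1.63, against 0.03 over all genes. In 19 members the high-fat diet libraries lay below every normal diet library, or 70.4% against 5.28% over all genes. In 0 members they lay above, against 5.32% over all genes. The list's median deviation was -1.16, -1.55 and -2.02 in high-fat diet replicates 1, 2 and 3, with mitochondrial shares of 4.90%, 18.8% and 44.1%. In the normal diet libraries it was 0.50, 0.14 and -0.62. The list's median log2 fold change was -1.14 with the log2 mitochondrial share as a covariate in edgeR, and -1.36 without high-fat diet replicate 3. The part of the mitochondrial share in these values was not tested further. Cyp51, the lanosterol demethylase, stood at 340.0, 209 and 126 CPM on the normal and 28.2, 25.8 and 15.1 CPM on the high-fat diet (log2 fold change -3.29, adjusted p = 0.052 by edgeR).

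Outside cholesterol synthesis, the 15 genes with the smallest edgeR p among those higher in all 3 high-fat diet libraries had log2 fold changes of 1.09 to 3.76. None passed edgeR (adjusted p of 0.244 to 0.766), 11 were called by DESeq2 and 7 by limma-voom. Their median deviation was 1.22, 1.85 and 1.83 log2 units in high-fat diet replicates 1, 2 and 3, with signs that the choice fixes.

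Of these 15 genes Tmem150c, which encodes a transmembrane protein, varied least between the high-fat diet libraries. Its level was 9.62, 9.096 and 6.79 CPM on the normal diet and 24.2, 23.9 and 22.8 CPM on the high-fat diet. The 3 high-fat diet values all lay above the normal diet values, and DESeq2 gave an adjusted p of 9.9e-05 (edgeR log2 fold change 1.48, SE 0.25). Pyroxd2, a mitochondrial oxidoreductase, was also even, at 20.4, 30.8 and 23.3 CPM against 53.7, 56.6 and 48.8 CPM (log2 fold change 1.09, adjusted p = 0.031 by DESeq2). Both were about as high in high-fat diet replicate 1 as in replicates 2 and 3. Dmtn, the actin-bundling protein dematin, was low in both groups, at 1.77, 1.04 and 1.59 and 6.89, 4.63 and 7.47 CPM (adjusted p = 0.012 by DESeq2).

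Per2, a repressor of the circadian clock, was at 2.44, 1.96 and 1.88 CPM on the normal diet and at 9.04, 6.199 and 24.1 CPM on the high-fat diet. High-fat diet replicate 3 was the highest, and replicates 1 and 2 also lay above every normal diet library (log2 fold change 2.64, SE 0.57, adjusted p = 0.003 by DESeq2). Sult2b1, a sulfotransferase that acts on cholesterol and other sterols, was at 1.22, 0.748 and 0.795 CPM against 3.13, 7.85 and 2.86 CPM (adjusted p = 0.03 by DESeq2). Il7, a growth factor of lymphocytes, was at 1.096, 1.497 and 1.300 CPM against 3.19, 5.02 and 3.13 CPM and was not called by either tool. Adh7, an alcohol and retinol dehydrogenase, was at 13.6, 23.9 and 20.3 CPM against 29.2, 49.1 and 50.7 CPM and was not called either.

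In some of the higher genes high-fat diet replicate 3 or replicates 2 and 3, which had the highest mitochondrial shares, stood far above replicate 1. Chka, choline kinase alpha, which starts phosphatidylcholine synthesis, was at 69.3, 87.7 and 97.5 CPM on the normal diet. On the high-fat diet it was at 114, 507 and 709.7 CPM in replicates 1, 2 and 3, so replicate 1 lay barely above the normal diet libraries. Its log2 fold change of 2.39 (SE 0.63, adjusted p = 0.025 by DESeq2) was 1.10 with the log2 mitochondrial share as a covariate in edgeR. Igh-6, an immunoglobulin heavy chain whose family members can share reads, was at 10.2, 4.15 and 6.502 CPM against 10.7, 36.96 and 97.7 CPM, and its log2 fold change of 2.80 became 1.43 with that covariate. Tex13b, named for its expression in testis, was at 2.07, 2.13 and 0.795 CPM against 8.93, 14.7 and 45.1 CPM (log2 fold change 3.76, and 2.65 with the covariate). Whether RNA quality or cell makeup took part in these values was not tested.

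Lox, Lama5 and Adam8 were among the 26 genes that DESeq2 called with higher values, and were picked after their values were seen. Lox, which crosslinks collagen, was at 12.6, 6.97 and 13.1 CPM against 81.3, 126 and 20.2 CPM, lowest of the high-fat diet libraries in replicate 3 (log2 fold change 2.80, adjusted p = 0.026 by DESeq2). Lama5, a laminin chain of basement membranes, was at 2.37, 2.76 and 6.502 CPM against 12.7, 10.5 and 44.3 CPM (adjusted p = 0.031 by DESeq2). Adam8, a metalloproteinase of leukocytes, was below 1 CPM in every normal diet library, at 0.426, 0.691 and 0.433 CPM, and at 7.94, 2.04 and 6.16 CPM on the high-fat diet (log2 fold change 3.35, adjusted p = 9.9e-05 by DESeq2). In the extracellular matrix list 21 of 30 tested members were lower (median log2 fold change -0.32). In it 1 member, Lox, lay above every normal diet library, or 3.33% against 5.32% over all genes, and 4 lay below, or 13.3% against 5.28%.

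For 3 of the 36 genes the groups overlapped. Hdc, histidine decarboxylase, was at 3.35, 6.85 and 4.26 CPM against 6.48, 21.7 and 27.4 CPM, with high-fat diet replicate 1 inside the normal range. Scd and the predicted locus LOC367746 were high in high-fat diet replicates 1 and 2 only, and LOC367746 stood at 0.608 CPM in replicate 3.

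**Figure D3:**
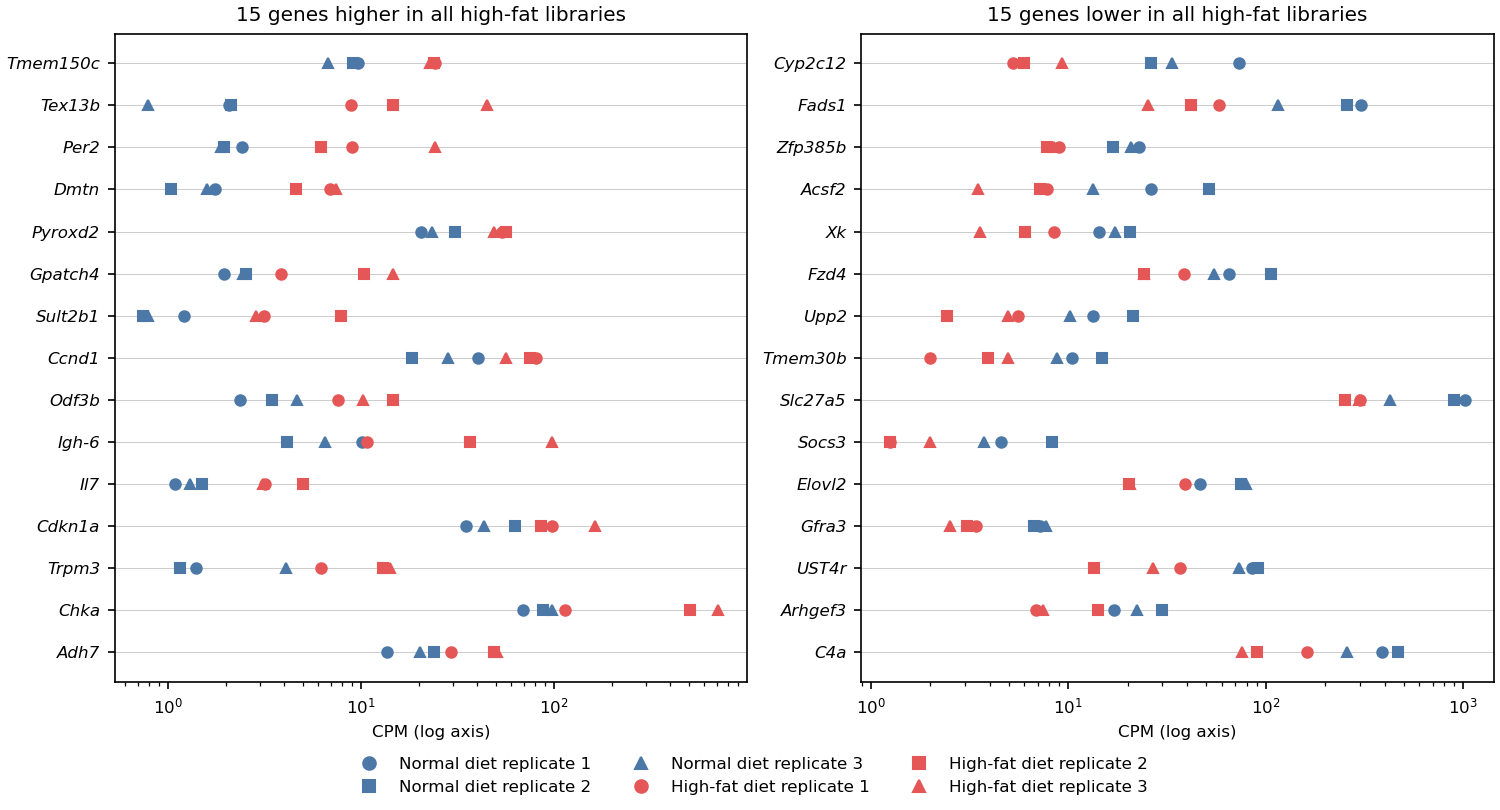
CPM (log axis) in every library of the 15 genes higher (left) and 15 genes lower (right) in all high-fat diet libraries with the smallest edgeR p outside cholesterol synthesis, in order of p. Blue marks the normal and red the high-fat diet, and the symbol gives the replicate. Tmem150c and Zfp385b are tight within each diet, while Chka and Igh-6 have high-fat diet replicate 1 next to the normal diet values.

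The 15 lower genes chosen in the same way had log2 fold changes of -2.70 to -1.25. None passed edgeR (adjusted p of 0.335 to 0.807), 10 were called by DESeq2 and 5 by limma-voom. Their median deviation was -1.29, -1.68 and -1.58 log2 units in high-fat diet replicates 1, 2 and 3. The choice of genes below every normal diet library in all 3 replicates fixes these signs.

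Cyp2c12 had the smallest p of the lower genes. It is a steroid hydroxylase of rat liver that is known as female-predominant and set by the pattern of growth hormone, and its close relatives can share reads with it. It was at 72.9, 26.3 and 33.4 CPM in these male livers on the normal diet and at 5.22, 5.96 and 9.29 CPM on the high-fat diet (log2 fold change -2.70, SE 0.51, adjusted p = 0.00026 by DESeq2). Prlr, the prolactin receptor, was at 10.96, 45.2 and 14.8 CPM against 1.097, 1.57 and 0.694 CPM, without overlap but with normal diet replicate 2 far above the others (adjusted p = 0.911 by edgeR and 0.705 by DESeq2). In the growth hormone axis list 11 of 16 members were lower, 3 of them without overlap, or 18.8% against 5.28% over all genes. Its median log2 fold change of -0.20 changed sign, to 0.02 without high-fat diet replicate 3 and to 0.12 with the mitochondrial share as a covariate.

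Lower genes of fatty acid handling included Fads1, the delta-5 desaturase of polyunsaturated fatty acids. Fads1 was at 304, 258 and 116 CPM on the normal diet and at 57.8, 41.7 and 25.4 CPM on the high-fat diet (log2 fold change -2.44, SE 0.48, adjusted p = 0.0005 by DESeq2 and 0.345 by edgeR). Elovl2, which lengthens polyunsaturated fatty acids, was at 46.3, 74.7 and 79.9 CPM against 38.97, 20.2 and 20.6 CPM and was not called. Acsf2, of the acyl-CoA synthetase family, was at 26.2, 51.4 and 13.4 CPM against 7.84, 7.22 and 3.47 CPM (adjusted p = 0.01 by DESeq2). In Fads1 and Acsf2 normal diet replicate 3 was the lowest normal diet library.

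Of the other lower genes, Socs3, which restrains cytokine signalling, was at 4.57, 8.23 and 3.76 CPM against 1.25, 1.26 and 1.997 CPM (adjusted p = 0.04 by DESeq2). Fzd4, a Wnt receptor, was at 65.4, 107 and 54.8 CPM against 38.6, 24.2 and 24.1 CPM (adjusted p = 0.04 by DESeq2). Zfp385b, a zinc finger protein, varied least of the 15 lower genes between the high-fat diet libraries, at 22.8, 16.8 and 20.8 CPM against 8.98, 7.77 and 8.51 CPM (log2 fold change -1.25, adjusted p = 0.01 by DESeq2). C4a, a complement component that has a near-identical copy, was at 388, 468 and 258 CPM against 163, 90.3 and 75.4 CPM and was called by limma-voom (adjusted p = 0.035) but not by DESeq2.

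The fatty acid synthesis list was split between higher and lower members. Of its 18 tested members 5 were higher and 13 lower, with a median log2 fold change of -0.36. That median was -0.06 with the mitochondrial share as a covariate and -0.90 to -0.21 with 1 library left out. In 1 member the high-fat diet libraries lay above every normal diet library, or 5.56% against 5.32% over all genes. In 4 they lay below, or 22.2% against 5.28%. The list's median deviation was 0.17, -0.64 and -1.36 in high-fat diet replicates 1, 2 and 3. Normal diet replicate 3 stood at -0.87, lower than high-fat diet replicate 2. Scd, the stearoyl-CoA desaturase that makes monounsaturated fatty acids, was at 73.2, 119.9 and 85.8 CPM on the normal diet and at 1584, 982 and 52.1 CPM on the high-fat diet. Replicates 1 and 2 were far above the normal level and replicate 3 was below all normal diet libraries (log2 fold change 3.23, SE 0.97, adjusted p = 0.03 by DESeq2 and 0.911 by edgeR). Srebf1, the gene of SREBP-1, had the same order, at 97.05, 32.7 and 34.3 CPM against 551, 169 and 38.5 CPM, and was not called (adjusted p = 0.4202 by DESeq2).

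Pck1, the rate-limiting enzyme of gluconeogenesis, was at 4425, 4887 and 2617 CPM on the normal diet and at 2600.2, 1674 and 1139 CPM on the high-fat diet, lower without overlap and not called (adjusted p = 0.319 by DESeq2). In the whole glucose list 11 of 25 members were higher and 14 lower. No overlap was seen for 2 higher members, or 8.00% against 5.32% over all genes, and for 4 lower members, or 16% against 5.28%. With library totals alone the lower members without overlap numbered 2, or 8.00% against 4.02% over all genes. The list's median log2 fold change of -0.17 was 0.08 without high-fat diet replicate 2.

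Bile acid enzymes differed in both directions. Cyp7a1, the rate-limiting enzyme of bile acid synthesis, was at 40.7, 24.4 and 24.5 CPM on the normal diet and at 197, 78.9 and 68.9 CPM on the high-fat diet. All 3 high-fat diet values lay above the normal diet values, and replicate 1 was the highest (log2 fold change 1.94, SE 0.62, adjusted p = 0.206 by DESeq2 and 0.911 by edgeR). Cyp8b1, which directs synthesis to cholic acid, was at 1152, 1194 and 685 CPM against 605, 333 and 393 CPM, lower without overlap.

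Slc27a5, which couples bile acids and fatty acids to coenzyme A in the liver, was at 1021, 899.5 and 428 CPM on the normal diet and at 299.9, 252 and 296 CPM under high fat. Values of the 3 high-fat diet libraries were close to each other (log2 fold change -1.47, SE 0.35, adjusted p = 0.014 by DESeq2 and 0.604 by edgeR). Abcb11, the bile salt export pump, was at 657, 723 and 537 CPM against 537, 309 and 439 CPM, and Abcg8, a partner in sterol export to bile, was at 4.93, 6.85 and 6.86 CPM against 1.201, 2.67 and 3.56 CPM. Both were lower without overlap and were not called. For Abcb11 normal diet replicate 3 and high-fat diet replicate 1 differed by less than the rounding shown. Of 22 tested members of the bile acid list, 3 lay above every normal diet library, or 13.6% against 5.32% over all genes, and 5 below, or 22.7% against 5.28%. Slc27a5 was the DESeq2 call among them. The number of members below was 4 with DESeq2 size factors and 3 with library totals alone. The median of -0.15 was 0.10 with the mitochondrial share as a covariate.

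Of genes for triglyceride storage and transport, Angptl8, a feeding-induced inhibitor of lipoprotein lipase, was at 30.4, 11.1 and 27.4 CPM against 70.7, 97.5 and 90.1 CPM. G0s2, an inhibitor of the lipase ATGL, was at 111, 93.2 and 98.97 CPM against 278, 369 and 130.3 CPM. Both were higher in all 3 high-fat diet libraries, and neither was called (adjusted p = 0.255 and 0.544 by DESeq2). In the lipid uptake and storage list, which holds G0s2, 11 of 27 members were higher and 16 lower, with a median of -0.18. In it 1 member lay above every normal diet library, or 3.70% against 5.32% over all genes, and 4 below, or 14.8% against 5.28%. In the fatty acid oxidation list 9 of 29 were higher and 20 lower, with a median of -0.22. No member lay above every normal diet library, and 4 lay below, or 13.8%. The lipoprotein list, which holds Angptl8, had 7 of 20 members higher and 13 lower, with a median of -0.24. In it 2 members were higher and 2 lower without overlap. With the mitochondrial share as a covariate these medians were 0.07, -0.07 and -0.03 in that order.

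Acute-phase proteins, which hepatocytes secrete and raise in inflammation, were lower nearly throughout. Of 20 tested members 19 had a log2 fold change below 0, with a median of -0.71. In 13 members, or 65.0%, all 3 high-fat diet libraries lay below all normal diet libraries, against 5.28% over all genes. None was called by edgeR or DESeq2. Of the 20, 2 lower members (Cp and Il1r1, the latter a cytokine receptor) had an unadjusted edgeR p under 0.05, against 1.55% lower over all genes. The list's median deviation was -0.54, -0.43 and -1.17 in high-fat diet replicates 1, 2 and 3 and 0.17, 0.05 and -0.16 in the normal diet libraries.

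The fibrinogen alpha chain gene Fga was at 8637, 8267 and 4836 CPM on the normal diet and at 3771, 4362 and 1944 CPM on the high-fat diet (log2 fold change -1.11, SE 0.60, adjusted p = 0.828 by DESeq2). Cp, the copper-carrying ceruloplasmin, was at 2243, 2091 and 1631 CPM against 1359, 1061 and 945 CPM (log2 fold change -0.83, SE 0.34). Kng1, the kininogen precursor, was at 1713, 2038 and 1458 CPM against 775, 972 and 783 CPM. In Fga and Kng1 high-fat diet replicate 1 was lower than replicate 2.

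Serpina1 and Hp, which are among the abundant members, overlapped between the diets. Serpina1, the antitrypsin gene, was at 13750.3, 11622 and 14908 CPM against 7473, 13096 and 7091 CPM, and haptoglobin (Hp) was at 10759, 12462 and 13461 CPM against 6889, 12128 and 7387 CPM, with high-fat diet replicate 2 within the normal range in both. Crp, the C-reactive protein gene, was at 5734, 6312 and 2332 CPM against 3766, 1218 and 337 CPM and overlapped, since normal diet replicate 3 was low.

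Other hepatocyte products were lower as well. Of 31 plasma carriers and coagulation factors 30 had a log2 fold change below 0 (median -0.43, and -0.12 with the mitochondrial share as a covariate). The groups did not overlap for 6, or 19.4% against 5.28% over all genes. Their median deviation was -0.24, -0.08 and -0.84 in high-fat diet replicates 1, 2 and 3 and 0.08, -0.08 and 0.10 in the normal diet libraries. In high-fat diet replicate 2, 11 of the 31 lay above the normal diet mean. Without high-fat diet replicate 3 the median log2 fold change was -0.25. Of 12 hepatocyte markers 11 were below 0 (median -0.52), with 1 that did not overlap (8.33%), and their median deviation was -0.23, -0.09 and -1.06 in high-fat diet replicates 1, 2 and 3. The acute-phase median was -0.29 and the hepatocyte marker median -0.07 with the mitochondrial share as a covariate. Without high-fat diet replicate 3 they were -0.51 and -0.17. The parts of the mitochondrial share and of hepatocyte RNA content in the acute-phase values were not tested further.

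Cell cycle genes lay the other way. Of 36 listed genes 25 passed the filter on low counts. Among these 20 were above 0, with a median log2 fold change of 0.59, and 8 lay above every normal diet library, or 32.0% against 5.32% over all genes. No member lay below every normal diet library, against 5.28% over all genes, and none was called. An unadjusted edgeR p under 0.05 was seen for 5 of the 25, all higher, against 2.77% higher over all genes. A gene can pass this filter through the group where it is high, so the counts cover the members tested and not the list. The median deviation was 0.63, 0.91 and 0.55 in high-fat diet replicates 1, 2 and 3, and 22, 22 and 14 of the 25 were above the normal diet mean.

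Ccnd1, cyclin D1, which drives entry into the cycle, was at 40.2, 18.5 and 28.3 CPM on the normal diet and at 80.4, 74.9 and 56.6 CPM on the high-fat diet (log2 fold change 1.29, SE 0.31, adjusted p = 0.064 by DESeq2). Cdkn1a, the inhibitor p21, which halts the cycle, was at 35.01, 62.8 and 43.2 CPM against 98.1, 86.1 and 162 CPM (log2 fold change 1.30, SE 0.34, adjusted p = 0.079 by DESeq2). Both were higher without overlap, and high-fat diet replicate 1 was among the high ones in each.

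The other 6 members without overlap were proliferation genes at low levels. Top2a, a topoisomerase of dividing cells, was at 0.731, 0.576 and 1.300 CPM against 1.88, 4.39 and 2.08 CPM, and the proliferation marker Mki67 was at 1.28, 0.633 and 1.44 CPM against 1.72, 4.47 and 2.43 CPM. Mcm6, of the replication helicase, was at 1.52, 0.979 and 0.795 CPM against 2.82, 2.12 and 2.69 CPM. These genes were picked out after their values were seen. Pcna, the replication clamp, overlapped, at 14.2, 15.9 and 12.9 CPM against 15.9, 14.8 and 7.900 CPM.

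**Figure D4:**
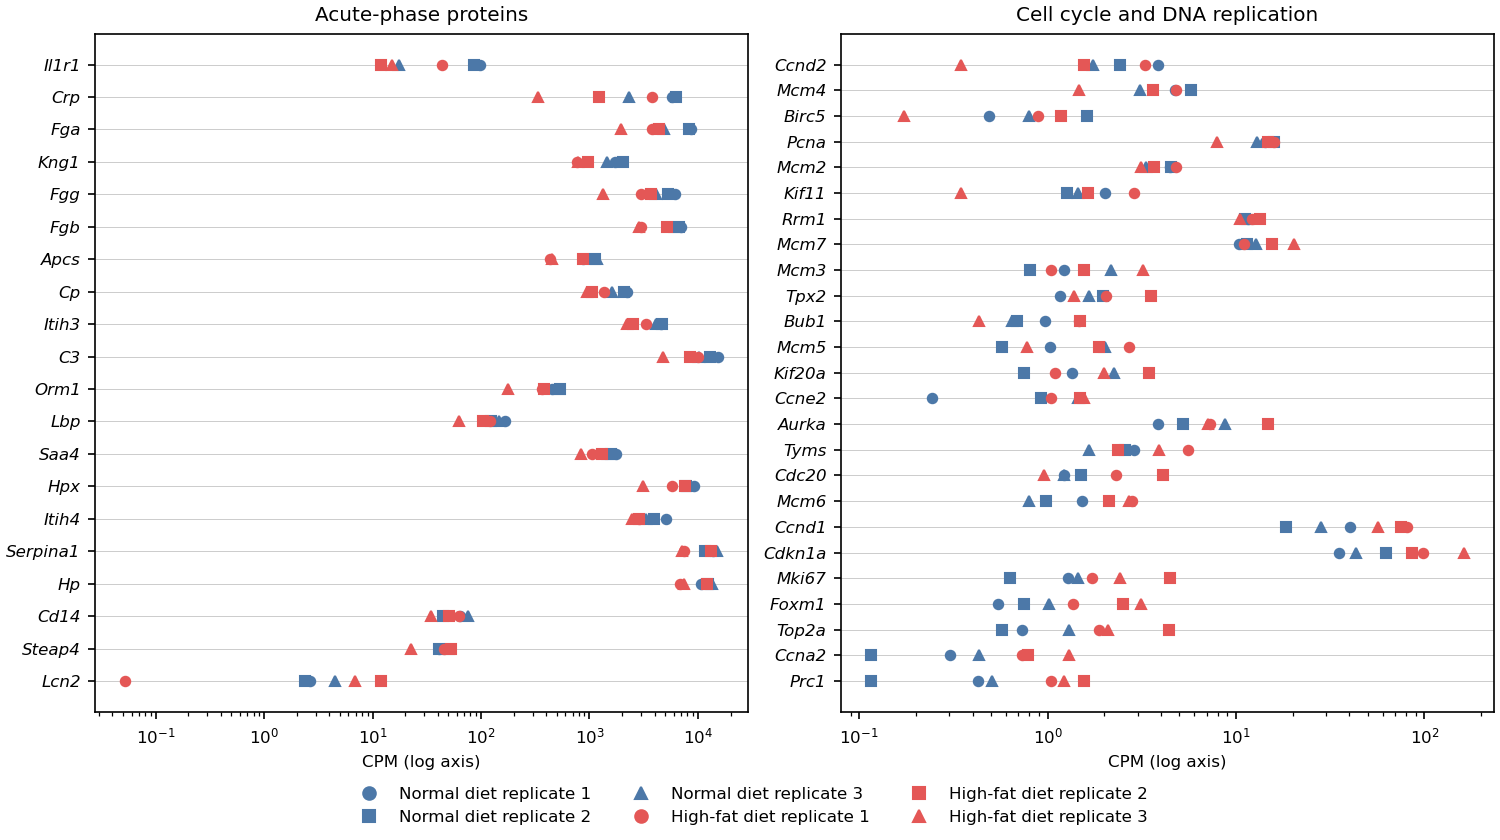
CPM (log axis) in every library for the tested members of the acute-phase list (left, 20 genes) and the cell cycle list (right, 25 genes), ordered by log2 fold change from lowest to highest. Blue marks the normal and red the high-fat diet. High-fat diet points lie left of the normal diet points in 13 acute-phase genes and right of them in 8 cell cycle genes.

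Clock genes other than Per2 had smaller fold changes. Dbp, a clock output factor, was at 2.68, 2.13 and 3.03 CPM against 5.59, 3.45 and 6.08 CPM, and Npas2, a partner of the activator Bmal1, was at 14.98, 14.5 and 14.4 CPM against 19.8, 34.8 and 23.9 CPM. Nr1d2, a clock repressor of the nuclear receptor family, was at 37.5, 33.05 and 26.3 CPM against 25.1, 22.9 and 23.1 CPM. Dbp and Npas2 were higher and Nr1d2 lower without overlap, and none was called. The core gene Clock overlapped, and the 17 tested members split into 9 higher and 8 lower. Of them 3 lay above every normal diet library, or 17.6% against 5.32% over all genes, and 1 below, or 5.88% against 5.28%. The libraries differed, with 15, 4 and 7 members above the normal diet mean in high-fat diet replicates 1, 2 and 3. The labels used here give no time of day at which the livers were taken.

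Of enzymes of drug metabolism, conjugation enzymes were above 0 in 19 of 27 tested members (median 0.24). The 4 members without overlap were all higher, or 14.8% against 5.32% over all genes, and the median was 0.02 without high-fat diet replicate 2. Cytochromes P450 of families 1 to 3 were below 0 in 16 of 24 (median -0.26). In 6 the high-fat diet libraries lay below every normal diet library, or 25.0% against 5.28%, and in 1 above, or 4.17% against 5.32%. The number below was 5 with DESeq2 size factors and 4 with the length trend removed. With library totals alone it was 3, or 12.5% against 4.02% over all genes. The P450 median was -0.06 without high-fat diet replicate 3 and 0.03 with the mitochondrial share as a covariate. The difference between these classes was not tested. Cyp1a2, which metabolises caffeine and aromatic amines, was at 689, 659 and 389.7 CPM against 244, 360.3 and 172 CPM (log2 fold change -1.16, SE 0.41). Gstm3, a glutathione transferase, was at 2.86, 2.303 and 4.33 CPM against 4.39, 11.1 and 17.9 CPM, with high-fat diet replicate 1 just above normal diet replicate 3. Nfe2l2, which encodes the antioxidant regulator NRF2, was at 73.4, 55.4 and 75.5 CPM against 124, 88.1 and 157 CPM, higher in all 3. None of Cyp1a2, Gstm3 and Nfe2l2 was called by edgeR or DESeq2.

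Markers of cells other than hepatocytes also differed between libraries. Of 13 Kupffer cell and macrophage markers 12 were below 0 (median -0.52, and -0.17 with the mitochondrial share as a covariate), 3 of them without overlap, or 23.1% against 5.28% over all genes. Their summed levels were 741 to 956 CPM on the normal and 448 to 864 CPM on the high-fat diet. Vsig4, a complement receptor that marks Kupffer cells, was at 33.2, 30.1 and 27.6 CPM against 16.2, 17.8 and 7.47 CPM. Of 11 sinusoidal endothelial markers 9 were below 0 (median -0.29), 3 without overlap (27.3%), with summed levels of 421 to 469 and 300.2 to 403 CPM. Periportal hepatocyte markers had a median of -0.64 (7 of 10 below 0, 4 of them without overlap, or 40%, and 1 higher without overlap, or 10%). Their median deviation was -0.12, -0.48 and -1.58 in high-fat diet replicates 1, 2 and 3. Pericentral markers had a median of -0.04 (6 of 9 below 0, 2 lower without overlap, or 22.2%, and 1 higher, or 11.1%). The periportal median was -0.23 with the mitochondrial share as a covariate and -0.33 without high-fat diet replicate 3. The difference between the 2 lists was not tested.

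Blood cell markers varied with single libraries. The 3 neutrophil markers that were tested (S100a8, S100a9 and Csf3r) summed to 4.75, 8.06 and 5.35 CPM on the normal diet and to 1.20, 8.87 and 30.7 CPM on the high-fat diet. Of 10 T and NK cell markers 9 were above 0 (median 0.64, and 0.13 with the mitochondrial share as a covariate) with no member above every normal diet library. Cd4, the exception, was at 24.5, 22.7 and 13.4 CPM against 12.4, 7.14 and 6.08 CPM. The 4 erythroid markers that were tested (Hba-a2, Hbb, Alas2 and Slc4a1) summed to 330.3, 134 and 420 CPM against 233, 515 and 1205 CPM, and high-fat diet replicate 3 was highest for both erythroid and neutrophil sums. The part of blood in that library was not tested.

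Genes of the ribosome and of the nuclear-encoded respiratory chain varied between the libraries of each diet. Of 70 cytosolic ribosomal protein genes 59 were above 0 (median 0.29), and 0 were called by edgeR or DESeq2. The groups did not overlap for 0 of them, against 5.32% higher and 5.28% lower over all genes. An unadjusted edgeR p under 0.05 was seen for 1, a higher gene, against 2.77% higher over all genes. Their median deviation was -0.61, 0.88 and 0.53 in high-fat diet replicates 1, 2 and 3 and -0.59, -0.23 and 0.81 in the normal diet libraries. Of 67 nuclear-encoded respiratory chain genes 50 were above 0 (median 0.29), also with 0 that did not overlap, against the same shares over all genes. Without high-fat diet replicate 2 both medians changed sign, to -0.01 and -0.02, and with the mitochondrial share as a covariate they were -0.06 and 0.14. With the length trend removed they were 0.12 and 0.08, and both lists hold short genes, of median length 699.5 and 731 bases against 2400 for the middle bin of genes.

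**Figure D5:**
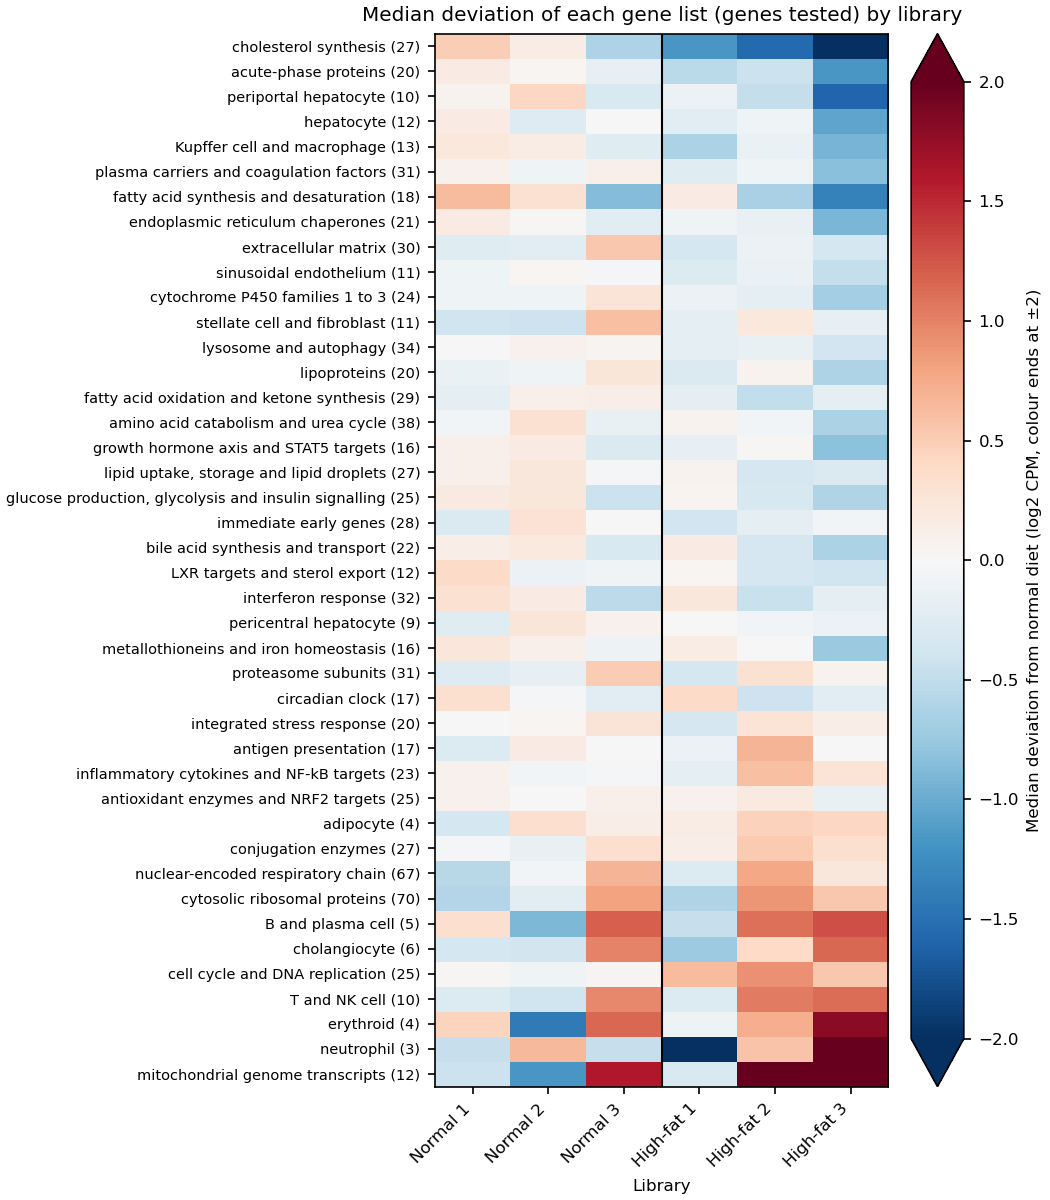
Median deviation from the normal diet (log2 CPM, colour) of each gene list with at least 3 tested members, by library, in order of the median log2 fold change. The number of genes tested stands in brackets. Cholesterol synthesis and acute-phase proteins are blue and cell cycle genes red in all 3 high-fat diet columns, while ribosomal and respiratory chain lists are red in high-fat diet replicates 2 and 3 and in normal diet replicate 3.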

How the data were processed

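Liver RNA was taken up in Trizol and sequenced from NEBNext Ultra libraries, per the labels' protocols. The authors deposited raw counts per gene, the unit tested here, and FPKM values, from which gene lengths were derived as whole numbers. The submitters' processing notes name DESeq2, without a version, and the mouse build mm9; aligner, counter, strand setting and annotation were not given in the sources used here, and 92.2% of symbols matched rat RefSeq genes (assembly GRCr8). The authors' normalized values and comparison columns, 18 per-sample columns in all, were not used. The members and gene lists were chosen with earlier results of these data known.

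Counts of all 9 libraries, over 15565 genes found in both deposited tables, were fitted with edgeR 4.0.16 in R 4.3.3 (TMM, filterByExpr with a minimum count of 10, group as the only term, 6 residual degrees of freedom). The quasi-likelihood test was two-sided with Benjamini-Hochberg adjustment, called under 0.05. No 2 libraries of a group agreed within sampling noise. Same-numbered libraries of the diets correlated at 0.60, -0.29 and 0.43 in their deviations, so numbers were not taken as pairs.

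Genes named are the edgeR call; the 15 higher and 15 lower with the smallest edgeR p, no overlap, a mean log2 CPM of at least 1 and no predicted-locus name; for each of 43 lists the 2 members with the smallest p and the 2 most abundant; and the DESeq2 calls outside cholesterol synthesis. Cyp8b1, Abcb11, Fga, Kng1, Crp, Pcna, Npas2 and Nr1d2 were picked after their values were seen. Per-library deviations are log2 CPM (prior count 2) minus the normal diet mean. Alternatives were DESeq2 1.42.0, limma-voom (limma 3.58.1), other scalings, no filter, 6 libraries, a replicate block, the mitochondrial share as a covariate, the 2 libraries over 40% mitochondrial left out, each library left out, and other thresholds. The length trend removed and the settings for counts of genes without overlap were chosen after seeing the data. The fit was tested on simulated counts. The result of 1 DESeq2 call outside cholesterol synthesis is not reported here.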

Additional observations from a re-analysis of the deposited data

How the results depend on the processing

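The count of genes called between the diets, 1 by edgeR, was 47 by DESeq2, 26 by limma-voom with quality weights, 2 with no filter on low counts and 2 at an adjusted p under 0.1. It was 0 with library totals alone, 0 with only the 6 libraries compared and 0 without the 2 libraries over 40% mitochondrial (high-fat diet replicate 3 and SCL-treated replicate 2). Leaving out single libraries gave 1 to 4 calls, the most without normal diet replicate 3. The 1 gene called without high-fat diet replicate 2 was not Tm7sf2, whose adjusted p there was 0.078 by edgeR. The replicate block called 1 gene, and not every library correlated best with its own number. Genes above every normal diet library, 641, numbered 868 to 2724 with 1 library left out and those below, 636, numbered 847 to 2610. These counts can only rise when a library is left out, so the rise by itself does not measure dependence on a library. Other scalings gave 630 to 686 and 484 to 750. The difference in mitochondrial share ranged from 5.33 to 24.95 percentage points with 1 library left out. In a set of 90 genes, which is not the same as the genes printed here, 0 changed sign in any of 20 alternatives. How those genes were chosen is not given, so this 0 does not speak for other genes. Many named genes were chosen for groups without overlap, so leaving out a library could hardly reverse them. Of all 177 genes that the naming rule picked, most of them uncalled, 28 had the opposite sign with the mitochondrial share as a covariate, 12 without high-fat diet replicate 3, 11 without the 2 libraries over 40% mitochondrial, 9 without high-fat diet replicate 2, and 0 to 8 in each other alternative. Of 43 list medians, 14 changed sign with the mitochondrial share as a covariate and 9 without the 2 libraries over 40% mitochondrial. The cause was not tested. High-fat diet replicate 3 held 7.17 M reads outside the mitochondrial genome, against 14.8 M in replicate 1, which limits low-count genes there.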

Other observations

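Values of further genes, some picked after their values were seen, belong to no list result above. Galr3, a galanin receptor, was at 0, 0.2303 and 0.144 CPM on the normal diet and at 8.51, 0.314 and 0.868 CPM on the high-fat diet, so its DESeq2 call (adjusted p = 0.034) rested mostly on high-fat diet replicate 1. Tpd52l1, of the tumor protein D52 family, was at 0.426, 0.2303 and 0.795 CPM against 8.201, 4.39 and 2.26 CPM (adjusted p = 0.002 by DESeq2). Car1, the carbonic anhydrase best known from red cells, was at 0.244, 0.461 and 0.217 CPM against 2.66, 6.67 and 0.608 CPM (adjusted p = 0.03 by DESeq2), highest in replicate 2, whereas the erythroid markers were highest in replicate 3. Fgf21, a hormone of the fasting liver, was at 12.7, 12.95 and 9.46 CPM against 17.9, 11.5 and 50.7 CPM, with high-fat diet replicate 2 within the normal range. Ppargc1a, a coactivator of gluconeogenesis, was at 4.38, 3.45 and 0.795 CPM against 0.627, 0.628 and 0.174 CPM. Upp2, a uridine phosphorylase of liver, was at 13.3, 21.2 and 10.3 CPM against 5.54, 2.43 and 4.95 CPM (adjusted p = 0.03 by DESeq2). Xbp1, a factor of the unfolded protein response, was at 324, 297 and 232 CPM against 157, 141 and 90.2 CPM, lower without overlap and not called. Ctsl, a lysosomal protease, was at 841, 1022 and 981 CPM against 426, 682 and 482 CPM, and 28 of 34 lysosome genes had a log2 fold change below 0 (median -0.24, and -0.01 with the mitochondrial share as a covariate), 5 of them without overlap, or 14.7% against 5.28% over all genes.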
